A study of Mus musculus with 8 samples.

Results

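Complement is the set of plasma proteins, receptors and inhibitors that marks microbes and debris for removal. The genes described here are 36 of its components, regulators and receptors, chosen by symbol from a fixed list, and all 36 were found among the 16796 genes in the deposited liver profiles. Whole livers of 8 mice were profiled by RNA sequencing, 4 wild type (WT: mice 164, 165, 166 and 167) and 4 with a liver-specific knockout of E4bp4 (E4bp4-LKO: mice 143, 144, 145 and 179). All 8 mice were 2 months old when they were put on a diet that induces non-alcoholic steatohepatitis (NASH), and stayed on it for 20 weeks. Nfil3 encodes E4BP4, which represses transcription from D-box DNA elements. The sources used here do not give the promoter that drives the deletion, nor the sex, strain or litters of the mice. No group on ordinary chow was analysed here, so each difference below is one between genotypes on the NASH diet.

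Complement starts by any of 3 routes. In the classical route C1q binds antibody or debris and activates the proteases C1r and C1s, which cut C4 and C2; in the lectin route mannose-binding lectins, ficolins and collectins do the same through the MASP proteases; the alternative route runs on C3, factor B, factor D and properdin. All routes cut C3 and then C5, after which C6, C7, C8 and C9 assemble the membrane attack complex. Hepatocytes secrete most of these proteins into plasma, whereas macrophages, Kupffer cells among them, make C1q and carry the receptors for the fragments C3a and C5a.

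Libraries held 23805540 to 32290265 expected counts, and a floor of 3 counts came to 0.0929 to 0.126 CPM (counts scaled to the library total). Levels below are CPM after TMM scaling, a correction for library composition; a ± value is the SD over the 4 livers of a group, and floors cover counting error only. TMM factors were 1.16 and 1.09 in WT 164 and 165 and 0.941 to 1.00 in the other 6 libraries, and results are also given without these 2 WT livers. Nfil3 measured 12.2 ± 3.20 CPM in WT and 4.76 ± 1.64 CPM in E4bp4-LKO, without overlap. Hepatocyte marker genes summed to 62414 to 80204 CPM in WT and 79971 to 99927 CPM in E4bp4-LKO, with 1 of 7 higher and 0 lower. Of 9 macrophage and Kupffer cell markers 2 were lower and 0 higher, and of 5 markers of lipid-associated macrophages 4 were lower. In whole liver, fewer cells of a type and less RNA per cell cannot be told apart.

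Of the 36 genes, 4 fell and 12 rose in E4bp4-LKO livers, and 20 did not pass the test (edgeR quasi-likelihood test, two-sided, Benjamini-Hochberg adjusted p under 0.05 over the 13244 genes tested). A log2 ratio below is the fitted log2 fold change of E4bp4-LKO over WT, positive when E4bp4-LKO was higher. The 4 that fell were the C1q chain genes C1qa, C1qb and C1qc and the C5a receptor gene C5ar1. The 12 that rose were C1ra, C2, C4a, C6, C8a, C8b, C8g, C9, Cfb, Cfhr2, Masp1 and Mbl1. The share that rose was 33.3%, against 4.36% of all genes tested, and the share that fell was 11.1%, against 6.48%. The groups did not overlap, with E4bp4-LKO higher, for 12 genes (33.3%, against 8.82% of all genes), and with E4bp4-LKO lower for 4 genes (11.1%, against 9.69%). The former include Hc and Masp2, which did not pass, and leave out C6 and Masp1, which did. The median log2 fold change of the 36 genes was 0.25, against 0.01 for all genes tested, and 24 estimates lay above 0 and 12 below. All 36 genes passed the filter on low counts, so none was left out of these counts.

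**Figure D1:**
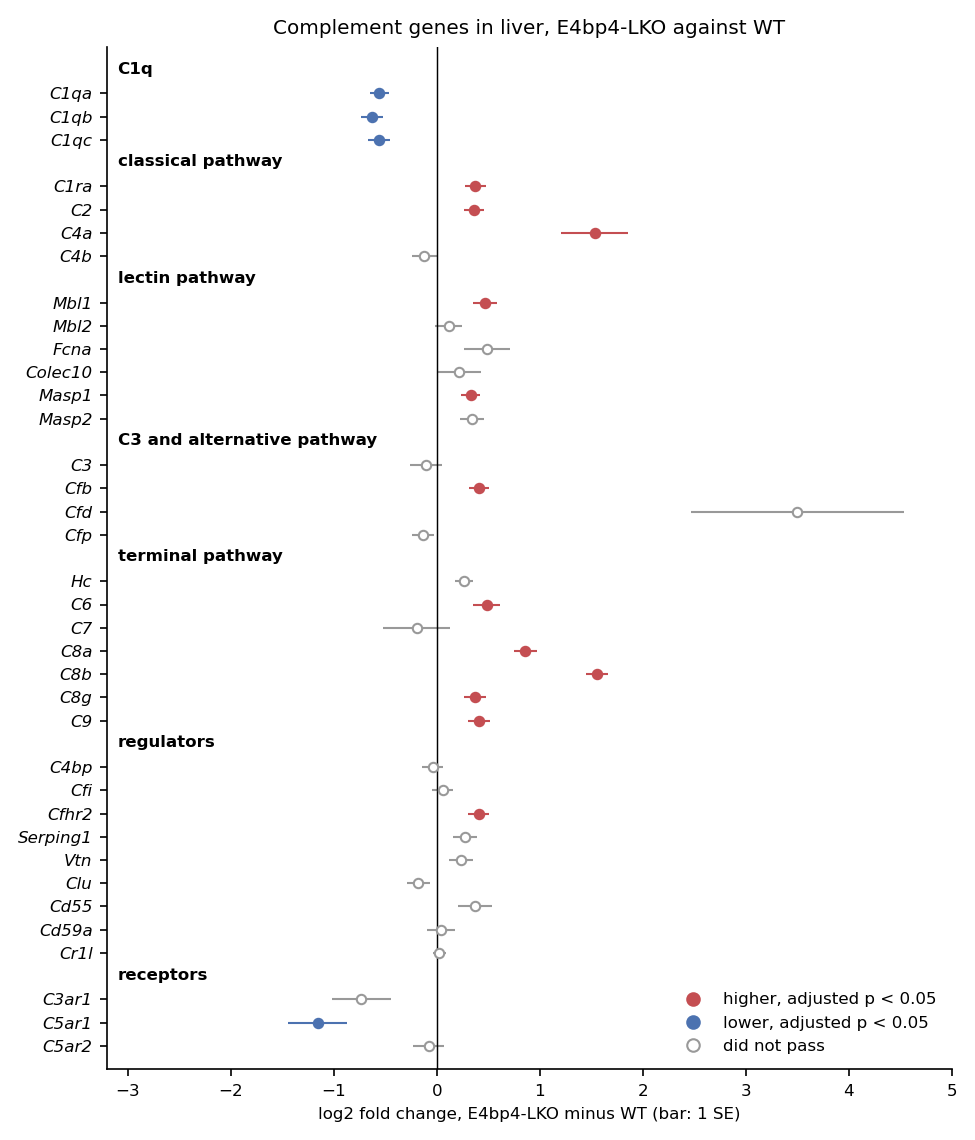
Log2 fold change (E4bp4-LKO minus WT, horizontal axis) of each of the 36 genes, ordered by role, with bars of 1 SE and colour for the outcome of the edgeR test. The 3 C1q genes and C5ar1 lie to the left among the genes that passed, and C8b, C4a and C8a reach farthest to the right among those that passed.

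The counts of calls moved with the scaling and with single livers, over all genes as well as over complement genes. Scaled by library totals alone, the median of all genes moved to -0.15, the share of lower genes among all calls went from 59.7% to 85.1%, and 4 complement genes fell and 5 rose (C4a, C8a, C8b, Cfhr2 and Mbl1), so that 55.6% of the complement calls were rises, against 75.0% with TMM. These 5 rises were 13.9% of the 36 genes, against 2.2% of all genes in that fit. Leaving out 1 liver left 2 to 9 rises and 3 or 4 falls, with the fewest rises (2, or 5.56%) without WT 165, where 1.96% of all genes rose, and 3 (8.33%) without E4bp4-LKO 144, where 1.75% did. Without WT 164 and 165 together there were 2 rises (5.56%) and 3 falls (8.33%), while over all genes 1.36% rose and 1.53% fell. C1qa, C1qb, C1qc, C8a and C8b passed in all 17 alternatives, and each of the 16 genes that passed kept its sign in all of them.

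The genes with these most stable calls lie in separate clusters on chromosome 4 (RefSeq genes of GRCm38.p6). There 0 other protein-coding genes stand between C8b and C8a, and 0 between C1qb, C1qc and C1qa. The clusters are far apart, with 463 protein-coding genes between C8a and C1qb. Their upstream sequences are shown because the members of each cluster moved together and E4BP4 is known to bind D-box elements. Each run is the 250 bases before the start site, 5′ to 3′ on the gene's strand, from RefSeq on GRCm38.p6; C8a is at chr4:104876399-104876648 (minus strand), C8b at chr4:104766067-104766316 (plus), C1qb at chr4:136886201-136886450 (minus) and C1qc at chr4:136892915-136893164 (minus). Capitals mark a match to the D-box core TTANNTAA, where N is any base; the C1qa window was not used here.
C8a: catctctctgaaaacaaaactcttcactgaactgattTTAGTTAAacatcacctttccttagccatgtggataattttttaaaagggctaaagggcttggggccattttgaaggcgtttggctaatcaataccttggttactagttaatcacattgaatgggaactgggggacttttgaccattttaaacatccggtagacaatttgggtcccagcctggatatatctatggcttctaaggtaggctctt
C8b: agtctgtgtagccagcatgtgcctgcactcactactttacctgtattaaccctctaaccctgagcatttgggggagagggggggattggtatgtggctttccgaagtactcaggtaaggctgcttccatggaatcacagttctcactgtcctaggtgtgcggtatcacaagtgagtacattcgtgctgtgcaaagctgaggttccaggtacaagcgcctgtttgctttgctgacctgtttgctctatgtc
C1qb: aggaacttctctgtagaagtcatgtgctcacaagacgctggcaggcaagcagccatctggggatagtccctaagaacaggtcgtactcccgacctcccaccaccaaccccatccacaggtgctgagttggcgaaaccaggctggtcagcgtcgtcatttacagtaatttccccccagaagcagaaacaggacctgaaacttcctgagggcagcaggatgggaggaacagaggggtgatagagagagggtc
C1qc: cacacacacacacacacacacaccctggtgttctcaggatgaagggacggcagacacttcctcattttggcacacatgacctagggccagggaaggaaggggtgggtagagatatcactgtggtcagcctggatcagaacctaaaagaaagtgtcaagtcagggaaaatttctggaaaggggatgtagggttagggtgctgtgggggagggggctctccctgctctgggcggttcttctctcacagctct

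Windows of 300 bases, from 250 before to 50 after the start, were matched for 26 of the 36 genes. On both strands, the strict D-box TTATGTAA or TTACGTAA, which lies within the core motif, was found in 0 of the 26 genes, and in 1.06% of all 32851 promoters. The core TTANNTAA was found in 4 of the 26 genes (C4bp, C6, C8a and Hc) and in 6.0% of all promoters. In C8a it read TTAGTTAA at position -213. The palindrome TTGCGCAA, bound by C/EBP factors, was in 0 of the 26 and in 0.183% of all promoters. These are matches of letters only, and no binding was measured.

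Per length, the 36 genes spanned a wide range of levels. On the FPKM scale, averaged over the 8 livers, Clu stood at 1347, C3 at 1084, Vtn at 922, Serping1 at 543 and Cfb at 433. Clu and C3 overlapped in their ranges over livers (1044 to 1799 and 702 to 1363 FPKM), as did C3 and Vtn (791 to 1038 FPKM). The C1q genes lay in the middle, with means of 102 to 107 FPKM, next to C1ra (125 FPKM) and Mbl1 (93.4 FPKM). C8b, at 37.0 FPKM, was the lowest of the C8 genes, below C8a (137 FPKM) and C8g (191 FPKM). At the bottom were the receptors C3ar1 (2.67 FPKM), C5ar1 (1.66 FPKM) and C5ar2 (0.99 FPKM), and C7 (0.571 FPKM). The 36 genes together took 1.90% to 2.13% of counts in WT and 1.63% to 1.98% in E4bp4-LKO, ranges that overlap. C3 alone took 29.19% to 33.24% of the complement counts in WT and 22.45% to 29.15% in E4bp4-LKO. These ranges did not overlap but almost touched.

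**Figure D2:**
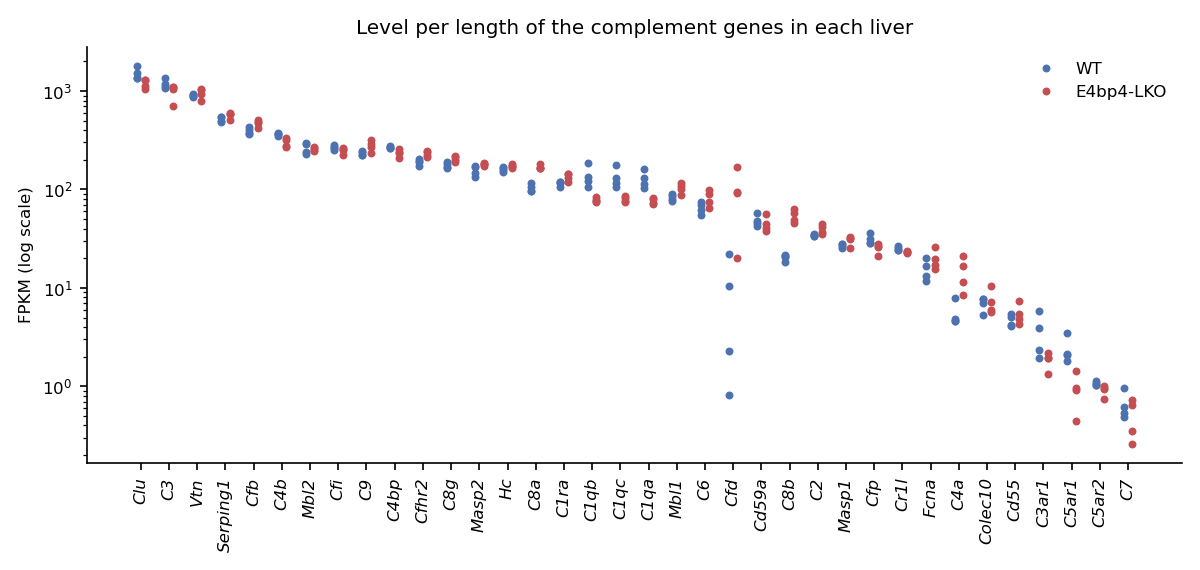
FPKM (vertical axis, log scale) of each complement gene in each of the 8 livers, ordered by mean level, with 1 point per liver coloured by genotype. Clu and C3 head the order and C7 and the anaphylatoxin receptors close it; Cfd has the widest spread, from 0.81 to 168 FPKM.

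All 3 C1q chain genes fell by similar amounts. C1qa (Entrez Gene 12259) measured 148, 127, 122 and 111 CPM in WT 164 to 167 and 89.1, 91.8, 81.0 and 83.3 CPM in E4bp4-LKO 143, 144, 145 and 179 (127 ± 15.2 against 86.3 ± 5.02; log2 ratio -0.56 with SE 0.09, adjusted p = 0.00606). C1qb (12260) measured 166, 128, 127 and 113 CPM against 91.6, 85.1, 86.0 and 82.8 CPM (log2 ratio -0.63 with SE 0.11, adjusted p = 0.00717). C1qc (12262) measured 159, 126, 123 and 111 CPM against 93.6, 90.9, 84.7 and 82.6 CPM (log2 ratio -0.56 with SE 0.11, adjusted p = 0.0106). WT 164 was the highest liver for each chain, and every E4bp4-LKO liver lay below every WT liver. The chains, which assemble into one protein, kept nearly the same proportions in all 8 livers, with FPKM ratios of 0.945 to 1.14 for C1qb over C1qa and 1.01 to 1.10 for C1qc over C1qa. Without WT 164 and 165 the log2 fold changes were -0.43, -0.47 and -0.41 and still passed (adjusted p up to 0.0353).

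The fall of C1q was set beside macrophage markers in the same livers. Clec4f, a Kupffer cell lectin, differed by -0.03 on the log2 scale (adjusted p = 0.950), Adgre1, the F4/80 antigen, -0.14 (adjusted p = 0.723) and Csf1r, the macrophage growth factor receptor, -0.24 (adjusted p = 0.275). Cd68, a lysosomal macrophage protein, fell by 0.79 on the log2 scale (adjusted p = 0.0226), as did Cd5l, a secreted Kupffer cell protein, by 0.56 (adjusted p = 0.0123). The remaining Kupffer cell markers went both ways and did not pass: Timd4 was at 1.16 (adjusted p = 0.0809, every E4bp4-LKO liver above every WT liver), Marco at 1.76 (adjusted p = 0.173) and Cd163 at 1.23 (adjusted p = 0.213), all 3 with WT 164 lowest, and Vsig4 at -0.24 (adjusted p = 0.327). Summed C1q over Csf1r was 2.97 to 3.24 in WT against 2.10 to 2.71 in E4bp4-LKO, without overlap, on the CPM scale. Over Clec4f (3.56 to 7.09 against 2.29 to 3.78), over Adgre1 (7.89 to 10.6 against 5.52 to 10.5) and over Cd68 (6.56 to 7.36 against 6.46 to 9.88) the groups overlapped. The 9 markers together summed to 571 to 701 CPM in WT and 427 to 648 CPM in E4bp4-LKO, and the 5 lipid-associated macrophage markers to 268 to 676 and 118 to 155 CPM. The part of these cells in the fall of C1q was not tested.

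Of the other early classical genes, C1ra, C2 and C4a rose and C4b did not. C1s1, the partner protease of C1r and outside the fixed list, did not rise either (log2 ratio -0.05, edgeR adjusted p = 0.761). C1ra (50909), the protease subunit C1r, measured 288, 271, 330 and 330 CPM in WT and 347, 426, 423 and 386 CPM in E4bp4-LKO (305 ± 30.1 against 395 ± 37.1; log2 ratio 0.38 with SE 0.10, adjusted p = 0.0409). C2 (12263), which supplies the catalytic subunit of the classical C3 convertase, measured 76.5, 81.8, 92.3 and 94.6 CPM against 98.3, 116, 124 and 105 CPM (log2 ratio 0.36 with SE 0.10, adjusted p = 0.0372). For both genes all E4bp4-LKO livers lay above all WT livers, but the highest WT and lowest E4bp4-LKO values were close. C1ra did not pass without WT 164, 165 or 166 or E4bp4-LKO 144, 145 or 179 (adjusted p up to 0.120), nor C2 without WT 164 or 165 or E4bp4-LKO 144, 145 or 179 (at most 0.103); neither passed on library totals or on FPKM. Both share sequence with other genes: 50.8% of the 50-base words of C1ra transcripts and 58.0% of those of C2 also occur in transcripts of other genes. Any transcript under another gene name was counted, also one overlapping the same locus, so the share alone does not show ambiguous counts. C1ra counts were fractional, while C2 counts were whole numbers.

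C4a rose and its close copy C4b did not. Mouse C4a encodes the sex-limited protein, named for its dependence on androgen, and C4b the C4 protein that the classical and lectin proteases cleave. C4a (625018) measured 21.5, 22.9, 43.1 and 26.8 CPM in WT and 93.4, 49.0, 66.7 and 122 CPM in E4bp4-LKO (28.6 ± 9.93 against 82.7 ± 31.8; log2 ratio 1.53 with SE 0.32, adjusted p = 0.0243). WT 166 came nearest to the E4bp4-LKO livers and E4bp4-LKO 144 nearest to WT. C4b measured 1722 to 2054 CPM in WT and 1540 to 1945 CPM in E4bp4-LKO (log2 ratio -0.12, adjusted p = 0.557), and passed as lower only in the FPKM fits (-0.28, limma adjusted p 0.0461 and 0.0475). C4a thereby made up 1.24% to 2.06% of the counts of the pair in WT and 2.46% to 6.99% in E4bp4-LKO. The counts of both were fractional, and 35.2% of C4b words are shared, with C4a as a partner, so the split between the copies is uncertain. C4a did not pass without WT 164, 165 or 167 (adjusted p up to 0.0861) or without WT 164 and 165 together (0.239).

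Because C4a is named for a dependence on androgen, genes of the Y chromosome and of male liver were looked up after the data had been seen. The strain is not given, so whether that dependence holds in these mice is not known. The 4 Y-linked genes Ddx3y, Eif2s3y, Kdm5d and Uty were detected in all 8 livers, at sums of 123 to 134 CPM in WT and 128 to 152 CPM in E4bp4-LKO, and 0 of the 4 passed the test. Of 7 genes that male mouse liver expresses strongly (Hsd3b5, Elovl3, Cyp2d9, Cyp4a12a, Cyp7b1, Slco1a1 and Mup20), 5 were higher and 0 lower in E4bp4-LKO. Among all genes tested 4.36% were higher and 6.48% lower. The median log2 fold change of the 7 was 1.66. The 7 summed to 6212 to 9682 CPM in WT and 5649 to 9741 CPM in E4bp4-LKO, overlapping, with most of the sum in Mup20, whose log2 ratio of -0.45 did not pass (adjusted p = 0.218). The 5 that rose did so between the same groups as C4a. Their values in each liver were not set beside those of C4a, and their part in its rise was not tested.

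**Figure D3:**
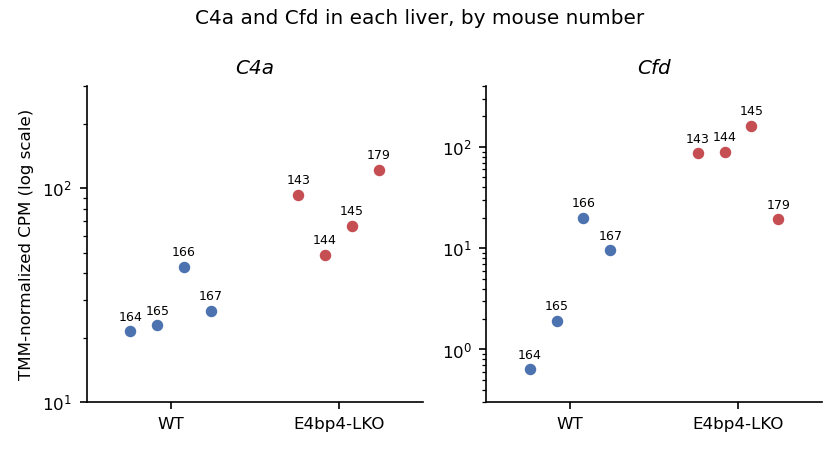
TMM-normalized CPM (vertical axis, log scale) of C4a and Cfd in each liver, labelled by mouse number. The WT points of C4a lie at 21.5 to 43.1 CPM, below the E4bp4-LKO points at 49.0 to 122 CPM; the Cfd points overlap at WT 166 and E4bp4-LKO 179.

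Of the 6 lectin pathway genes among the 36, 2 rose, 0 fell and all 6 estimates were above 0, while 4.36% of all genes tested rose. Colec11, a lectin pathway collectin outside the 36, fell (log2 ratio -0.40, edgeR adjusted p = 0.0409). Mbl1 (17194), mannose-binding lectin A, measured 59.5, 66.9, 77.6 and 82.4 CPM in WT and 94.6, 105, 84.8 and 112 CPM in E4bp4-LKO (71.6 ± 10.3 against 99.0 ± 11.7; log2 ratio 0.47 with SE 0.12, adjusted p = 0.0295). Masp1 (17174), a protease that activates the lectin pathway, measured 67.1, 67.9, 76.4 and 71.3 CPM against 94.7, 92.2, 93.4 and 74.6 CPM (log2 ratio 0.33 with SE 0.09, adjusted p = 0.0385). The Mbl1 groups were separated by the gap between WT 167 and E4bp4-LKO 145, whereas for Masp1 E4bp4-LKO 179 lay below WT 166. Masp2, which cleaves C4 and C2, ranged from 173 to 256 CPM in WT and 277 to 291 CPM in E4bp4-LKO without overlap. It did not pass (log2 ratio 0.34, edgeR adjusted p = 0.0800, and 0.0297 in DESeq2). The deposited length of Masp2 was 1444 to 1578 bases over the livers, while its matched transcript had 3058 bases. Its counts thus take in shorter transcripts, which were not told apart.

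Mbl2, the mannose-binding lectin C gene, measured 208 to 317 CPM in WT and 270 to 300 CPM in E4bp4-LKO, within the WT range (log2 ratio 0.12, adjusted p = 0.607), and its estimate was below 0 without WT 164 and 165 (-0.10). Fcna, the ficolin of macrophages, measured 13.3 to 26.1 against 21.5 to 35.6 CPM (0.49, adjusted p = 0.191), and the collectin gene Colec10 21.2 to 36.3 against 28.2 to 50.3 CPM (0.22, adjusted p = 0.555). Both sets overlapped. Mbl1 did not pass without WT 164 or 165 or E4bp4-LKO 144 or 179 (adjusted p up to 0.0872), nor Masp1 without WT 164, 165 or 167 or E4bp4-LKO 143, 144 or 145 (at most 0.104). Masp1 was also lost on library totals (edgeR adjusted p 0.193) and on FPKM. Without WT 164 and 165 together neither Mbl1 nor Masp1 passed (0.163 and 0.207).

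Among C3 and the alternative pathway genes, Cfb rose and C3 and Cfp did not pass. Cfb (14962), factor B, the protease of the alternative C3 convertase, measured 1036, 1040, 1050 and 1036 CPM in WT and 1228, 1391, 1421 and 1497 CPM in E4bp4-LKO (1040 ± 6.57 against 1384 ± 114; log2 ratio 0.41 with SE 0.10, adjusted p = 0.0242). The WT livers were nearly identical and all 4 E4bp4-LKO livers lay above them. Of the Cfb words 81.8% are shared with transcripts of other genes, although its counts were whole numbers, and Cfb and C2 are neighbours with 0 protein-coding genes between them. Cfb did not pass without WT 165 or 166 or E4bp4-LKO 144, 145 or 179 (adjusted p up to 0.0737), nor on library totals (0.0667). It was also lost on FPKM and without WT 164 and 165 together (edgeR adjusted p 0.0570).

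C3, the central protein of all routes, measured 6115, 5612, 5536 and 5986 CPM in WT and 3796, 6045, 6088 and 5740 CPM in E4bp4-LKO (log2 ratio -0.10, adjusted p = 0.720). E4bp4-LKO 143 stood alone at the low end, and without it the estimate was 0.04. Cfp, properdin, which stabilises the alternative convertase, measured 37.7 to 50.02 CPM in WT and 33.4 to 44.2 CPM in E4bp4-LKO (-0.13, adjusted p = 0.465). Cfd, factor D or adipsin, the protease that cuts factor B, measured 0.636, 1.92, 20.0 and 9.51 CPM in WT and 86.5, 89.8, 161 and 19.2 CPM in E4bp4-LKO. Its log2 fold change of 3.50 had an SE of 1.03 and did not pass (adjusted p = 0.0754), and E4bp4-LKO 179 lay just below WT 166. Cfd passed in DESeq2, voom and both FPKM fits. Adipocytes are its main source, and the adipocyte markers Adipoq and Plin1 summed to 0 CPM in WT and to at most 0.0446 CPM in E4bp4-LKO, below the detection floor of 3 counts.

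Of 7 terminal genes, 5 rose and 0 fell, with C8b and C8a in front, while 4.36% of all genes tested rose and 6.48% fell. Of these 5, only C8a and C8b passed in all 17 alternatives. C8b (110382), the beta chain of C8, measured 40.4, 42.7, 48.5 and 41.7 CPM in WT and 107, 136, 149 and 117 CPM in E4bp4-LKO (43.3 ± 3.56 against 127 ± 18.7; 2.94-fold, log2 ratio 1.55 with SE 0.11, adjusted p = 4.63e-05). C8a (230558), the alpha chain, which inserts into the membrane, measured 301, 355, 424 and 353 CPM against 625, 635, 638 and 706 CPM (358 ± 50.4 against 651 ± 37.3; 1.82-fold, log2 ratio 0.86 with SE 0.11, adjusted p = 0.00193). For both genes the lowest E4bp4-LKO liver was well above the highest WT liver. C8g (69379), the gamma chain, a lipocalin encoded on another chromosome, measured 148, 154, 185 and 195 CPM against 199, 238, 214 and 230 CPM (log2 ratio 0.37 with SE 0.10, adjusted p = 0.0456), with WT 167 and E4bp4-LKO 143 almost touching.

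The C8 genes therefore changed unequally. On the FPKM scale, C8b over C8a was 0.186 to 0.218 in WT against 0.267 to 0.378 in E4bp4-LKO, and C8b over C8g 0.0966 to 0.125 and 0.229 to 0.316. C8a over C8g was 0.504 to 0.643 against 0.742 to 0.880. None of these ratios overlapped between the groups, and in every liver C8b was the lowest of the 3. C8a and C8b passed in each fit without 1 liver (adjusted p up to 0.0118 and 0.000694) and had log2 fold changes of 0.75 and 1.501 without WT 164 and 165. C8g did not pass without WT 164, 165 or 166 or E4bp4-LKO 144, 145 or 179 (at most 0.129), nor on library totals (0.0678). It was also lost in voom, on FPKM, and without WT 164 and 165 together (edgeR adjusted p 0.227).

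**Figure D4:**
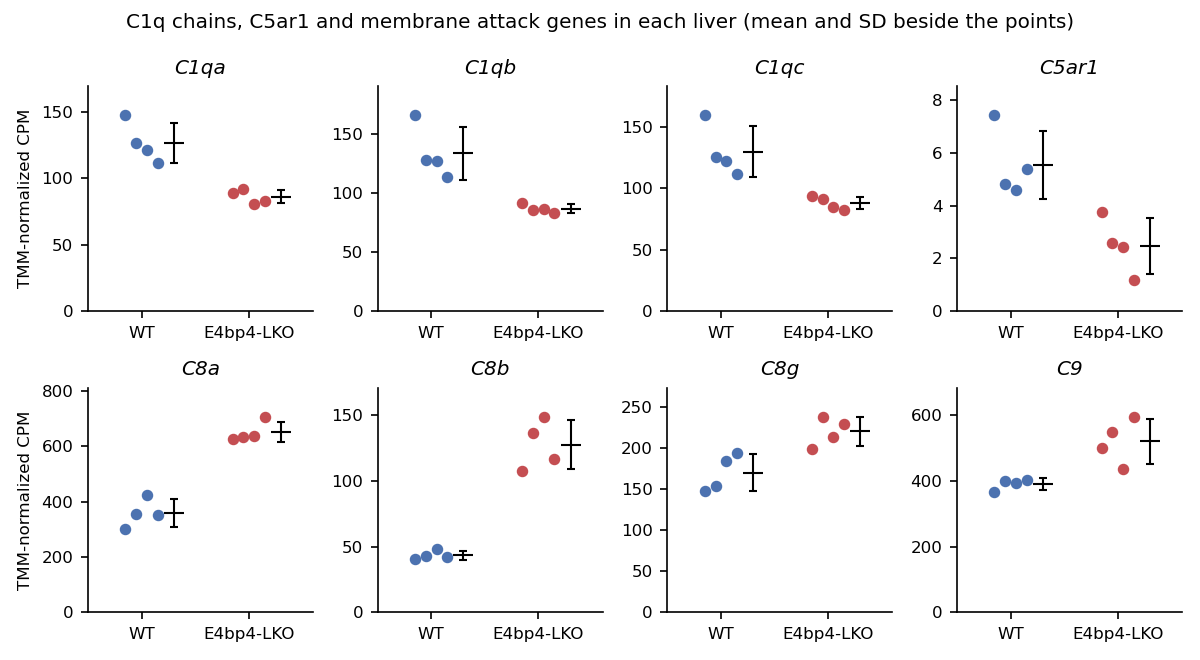
TMM-normalized CPM (vertical axes, from 0) of the C1q chains, C5ar1 and membrane attack genes in each liver, with the group mean and SD beside the points. The C8b points at 107 to 149 CPM stand clear of the WT points at 40.4 to 48.5 CPM, and the C1q points of E4bp4-LKO lie below all WT points.

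C9 (12279), which forms the pore, measured 364, 400, 394 and 402 CPM in WT and 500, 546, 435 and 593 CPM in E4bp4-LKO (390 ± 17.6 against 519 ± 67.4; log2 ratio 0.41 with SE 0.11, adjusted p = 0.0332). C6 (12274), which binds C5b, measured 187, 166, 201 and 160 CPM against 296, 230, 198 and 273 CPM (log2 ratio 0.48 with SE 0.13, adjusted p = 0.0377). The C9 groups did not overlap, while for C6 E4bp4-LKO 145 lay below WT 166. Hc, which encodes C5, measured 785 to 861 CPM in WT and 953 to 1062 CPM in E4bp4-LKO without overlap and did not pass (0.27, adjusted p = 0.0762; 0.000501 in DESeq2). C7, which gives the complex its hold on the membrane and comes mainly from cells other than hepatocytes, measured 1.36 to 2.25 against 0.758 to 2.11 CPM (-0.20, adjusted p = 0.743). C9 did not pass without WT 164, 165 or 166 or E4bp4-LKO 144 or 179 (adjusted p up to 0.0956), nor C6 without WT 164, 165 or 167 or E4bp4-LKO 143, 144 or 179 (at most 0.102). Neither C9 nor C6 passed on library totals (edgeR adjusted p 0.0896 and 0.129), on FPKM, or without WT 164 and 165 together (0.118 and 0.182).

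Of the 9 regulators, 1 rose and 0 fell, while 4.36% of all genes tested rose and 6.48% fell. Cfhr2 (545366), of the factor H-related family, measured 241, 305, 316 and 315 CPM in WT and 398, 380, 361 and 420 CPM in E4bp4-LKO (294 ± 35.9 against 390 ± 25.0; log2 ratio 0.41 with SE 0.10, adjusted p = 0.0336). WT 164 was the lowest liver and the groups did not overlap, but 35.3% of its words are shared with other genes and its counts were fractional. It did not pass without WT 165 or any of the E4bp4-LKO livers in turn (adjusted p up to 0.0863), nor without WT 164 and 165 together (0.0890).

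None of the other soluble inhibitors passed. Serping1, the C1 inhibitor, measured 790 to 1027 CPM in WT and 973 to 1156 CPM in E4bp4-LKO (log2 ratio 0.27, adjusted p = 0.152). Vtn, vitronectin, which keeps the attack complex off membranes, measured 1401 to 1628 against 1446 to 1943 CPM (0.23, adjusted p = 0.226), and Clu, clusterin, of the same action, 2443 to 2802 against 1959 to 2484 CPM (-0.18, adjusted p = 0.336). C4bp, which binds the C4b fragment of C4, measured 426 to 525 against 415 to 510 CPM (-0.04, adjusted p = 0.841), and Cfi, the protease factor I, 454 to 563 against 488 to 575 CPM (0.06, adjusted p = 0.764). All 5 overlapped between the groups.

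The membrane-bound inhibitors did not pass either. Cd55, decay-accelerating factor, measured 9.15 to 12.8 CPM in WT and 11.6 to 19.2 CPM in E4bp4-LKO (log2 ratio 0.37, adjusted p = 0.168). Cd59a, which blocks C9, measured 64.0 to 92.4 against 69.8 to 105 CPM (0.04, adjusted p = 0.884). Cr1l, known as Crry, a C3 convertase inhibitor of mouse cells, measured 37.0 to 41.4 against 39.5 to 41.6 CPM (0.02, adjusted p = 0.840). Both groups of Cr1l kept within a narrow band. The estimates of Cfi, Cd59a and Cr1l are smaller than the move in the median of all genes on library totals (from 0.01 to -0.15), so their signs depend on the scaling. Of the words of Cd55 and Cr1l, 13.3% and 28.6% are shared with other genes, and Cd55 and Cd59a are among the 10 of 36 genes with fractional counts.

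Among the receptors for C3a and C5a, C5ar1 fell. C5ar1 (12273), the signalling C5a receptor, measured 7.42, 4.82, 4.59 and 5.38 CPM in WT and 3.74, 2.57, 2.43 and 1.16 CPM in E4bp4-LKO (5.56 ± 1.29 against 2.47 ± 1.05; log2 ratio -1.16 with SE 0.29, adjusted p = 0.0309). All E4bp4-LKO livers lay below all WT livers. C3ar1, the C3a receptor, measured 21.6, 15.8, 10.1 and 8.64 CPM against 8.84, 10.03, 6.06 and 8.88 CPM (log2 ratio -0.73 with SE 0.28, adjusted p = 0.128; 0.0427 in DESeq2). WT 164 and 165 were the high livers for C3ar1 and the other WT livers overlapped with E4bp4-LKO. C5ar2, the second C5a receptor and the chromosomal neighbour of C5ar1, measured 3.24, 3.34, 3.88 and 3.63 CPM against 3.48, 3.70, 2.76 and 3.41 CPM (-0.08, adjusted p = 0.777), with mixed groups. C5ar1 did not pass without WT 164 or 165 or E4bp4-LKO 144 or 145 (adjusted p up to 0.0831), nor without WT 164 and 165 together (0.163). A filter at 5 CPM removed it. Neutrophils also carry C5ar1, and of 5 neutrophil markers tested 1 was higher and 0 lower, with sums of 8.68 to 20.2 CPM in WT and 8.18 to 17.1 CPM in E4bp4-LKO; their part in the fall was not tested.

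The terminal and lectin genes of hepatocytes and the C1q and receptor genes of macrophages went opposite ways; these are chosen subsets, not all members made by either cell type. Of 10 terminal and lectin genes made by hepatocytes (Hc, C6, C8a, C8b, C8g, C9, Mbl1, Mbl2, Masp1 and Masp2), 7 rose, 0 fell and 3 did not pass, with a median log2 fold change of 0.39 and all 10 estimates above 0. Of the 6 genes for C1q and the receptors, made by macrophages, 4 fell, 0 rose and 2 did not pass, with a median of -0.60 and all 6 below 0. The other 20 genes had 5 rises, 0 falls and a median of 0.23. Among them are macrophage-made Fcna (0.49) and Cfp (-0.13) and the hepatocyte-made C3 (-0.10), C4b (-0.12), C4bp (-0.04) and Clu (-0.18), none of which passed, so the common sign within each subset does not extend to all genes of that source. Of all genes tested 4.36% rose and 6.48% fell, and their median was 0.01. Without WT 164 and 165, only C8a and C8b of the hepatocyte subset passed, and only C1qa, C1qb and C1qc of the macrophage subset. The groups were set from textbook knowledge, but with earlier results of these data known, so their common signs are a description only. The values come from whole liver.

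The same contrast showed in every liver. The 10 hepatocyte genes summed to 2334, 2554, 2824 and 2712 CPM in WT 164 to 167 and to 3422, 3549, 3408 and 3739 CPM in E4bp4-LKO 143, 144, 145 and 179. The 6 macrophage genes summed to 505, 405, 390 and 354 CPM and to 290, 284, 263 and 262 CPM. Both sums separated the groups, with WT 164 at one extreme in each. Their ratio was 4.62 to 7.67 in WT against 11.8 to 14.3 in E4bp4-LKO. The hepatocyte markers as a list had a median of 0.18, with Serpina1c (1.08, adjusted p = 0.00537) the 1 that rose, and Alb (0.20, adjusted p = 0.414) and Hnf4a (0.18, adjusted p = 0.331) not passing; their part in the higher sum was not tested. On library totals the hepatocyte genes had a median of 0.24 and the macrophage genes of -0.77; without WT 164 and 165 these were 0.29 and -0.42.

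**Figure D5:**
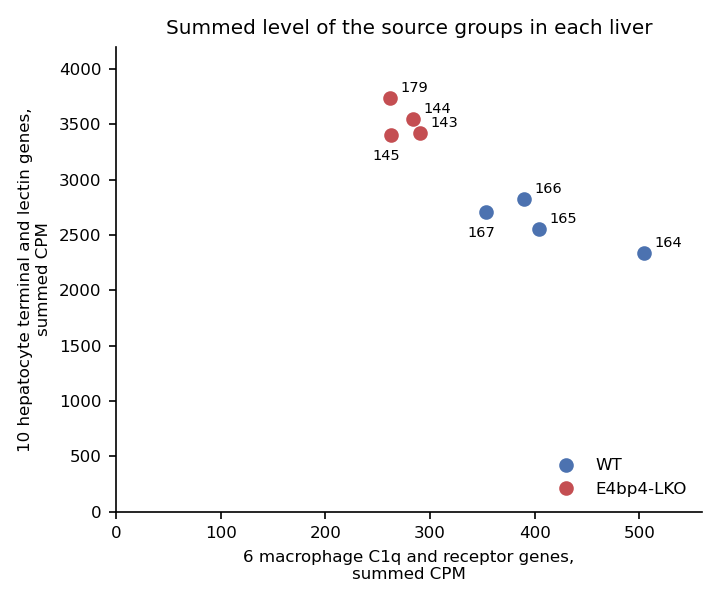
Summed CPM of the 6 macrophage-made genes (horizontal axis, mostly C1q) and of the 10 hepatocyte-made genes (vertical axis), both from 0. There is 1 point per liver, labelled by mouse number. The E4bp4-LKO livers lie at 262 to 290 CPM and 3408 to 3739 CPM, to the upper left of the WT livers.

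Complement genes outside the 36 were checked from a second list of 23, of which 22 were listed and 16 tested. Of the 16, 5 fell, 1 rose and 10 did not pass, while 6.48% of all genes tested fell and 4.36% rose. The scavenger collectin Colec12 fell from 65.2 ± 6.26 to 39.5 ± 3.32 CPM (log2 ratio -0.72 with SE 0.09, adjusted p = 0.00166), and the lectin pathway collectin Colec11 from 47.9 ± 1.45 to 36.4 ± 6.36 CPM (-0.40, adjusted p = 0.0409). The subunits of the complement receptor integrins also fell, Itgb2 by 0.56 on the log2 scale (adjusted p = 0.0340) and Itgax by 1.21 (adjusted p = 0.0446), while Itgam, at -0.43, did not pass (adjusted p = 0.441). Markers of stellate and mesenchymal cells were lower in the same livers, 3 of 7 passing (Dcn at -0.55, Col3a1 at -1.15 and Lrat at -0.40) and 0 higher, with sums of 718 to 1322 CPM in WT and 458 to 631 CPM in E4bp4-LKO without overlap; the part of these cells and of macrophages in the falls of this list was not tested. Cd93, first described as a C1q receptor, fell by 0.66 (adjusted p = 0.0387). Susd4, an inhibitor of the C3 convertases, rose from 5.602 ± 2.81 to 20.7 ± 5.30 CPM (1.90, SE 0.35, adjusted p = 0.0143).

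Colec12 and Susd4 passed in all 17 alternatives, whereas the other 4 did not pass without WT 164 and 165 (adjusted p 0.144 to 0.273). Itgb2, Cd93, Colec11 and Itgax were each also lost without WT 164, WT 165, E4bp4-LKO 144 or E4bp4-LKO 179 alone, and some without other mice (adjusted p up to 0.119). Vsig4, the C3b receptor of Kupffer cells, did not pass (44.6 ± 4.39 against 37.7 ± 9.06 CPM; log2 ratio -0.24, adjusted p = 0.327). C1s1, the partner protease of C1r, stood at 561 ± 37.7 and 542 ± 12.5 CPM (-0.05, adjusted p = 0.761), beside the rise of C1ra. The carboxypeptidases that trim C3a and C5a, Cpn1 (0.01, adjusted p = 0.948), Cpn2 (0.30, adjusted p = 0.103) and Cpb2 (0.24, adjusted p = 0.126), did not pass.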

How the data were processed

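RNA of whole liver from 4 WT and 4 E4bp4-LKO mice was sequenced after oligo-dT selection or ribosomal RNA depletion, per the labels' protocols. HISAT2 is named in the submitters' processing notes; the sources used here give no version of it, no quantification program, genome build or strand. The deposited expected counts are estimated by the authors per gene and are not normalized; 25.9% to 27.3% of entries were fractional. The deposited FPKM values were normalized by the authors for length and library size.

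A gene absent from a file was set to 0. Expected counts were rounded and fitted in R 4.3.3 with edgeR 4.0.16 (filterByExpr with minimum count 10 and minimum total count 15, TMM, robust quasi-likelihood F test), over all 13244 genes kept of 16796. The threshold was an adjusted p of 0.05, and each SE is the absolute log2 fold change over the square root of F. Mouse numbers do not recur between groups, so no samples were paired. The p-values set the genotype difference against the spread between mice, estimated with information shared across genes. The libraries were not copies (lowest chi-square per degree of freedom 7.52).

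The members and lists were chosen with earlier results of these data known. Values in every liver were given for members that passed and for the C1q and receptor genes. Other genes of the pathway were named if they passed or were among the 4 smallest p, and C1s1, Cpn1, Cpn2, Cpb2, Vsig4 and Itgam were added after their values were seen. Alternatives were DESeq2 1.42.0, its size factors in edgeR, library totals, no filter, 5 CPM in 4 libraries, voom (limma 3.58.1), limma on log2(FPKM + 1) and log2(FPKM + 0.1) for genes at 1 FPKM in 4 libraries, an adjusted p of 0.1, and leaving out each mouse, or WT 164 and 165. Shared sequence was counted in words of 50 bases over GENCODE transcripts, and 35 members matched. Transcripts under any other gene name counted, including those that overlap the same locus.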

Additional observations from a re-analysis of the deposited data

Results flagged for a closer look

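In 5 of 72 sets of 4 livers (36 genes in each genotype), 1 liver stood apart by Dixon's 95% criterion; chance gives about 1 in 20. Masp1 measured 74.6 CPM in E4bp4-LKO 179, against 92.2 CPM in the nearest of that group. C3 measured 3796 CPM in E4bp4-LKO 143, with the nearest at 5740 CPM. Serping1, the C1 inhibitor, was low in the same liver, at 973 CPM against 1132 CPM. C8a measured 706 CPM in E4bp4-LKO 179, above 638 CPM in the nearest, and Cfhr2 measured 241 CPM in WT 164, below 305 CPM.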

How the results depend on the processing

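Calls changed over all genes, and those of the complement genes with them. Against 12 rises, library totals gave 5 and both FPKM fits 6, leaving out 1 mouse 2 to 9, and leaving out WT 164 and 165 gave 2; the 4 falls became 3 to 5. Leaving out E4bp4-LKO 144 gave 3 rises, E4bp4-LKO 145 gave 6, and WT 164 and E4bp4-LKO 179 gave 4 each. Over all genes the 578 rises became 291 on library totals, 261 on FPKM, 261 without WT 165 and 235 without E4bp4-LKO 144. DESeq2 gave 15 rises and 5 falls. The median of the hepatocyte-made genes went from 0.39 to 0.24 on library totals and to 0.23 and 0.24 on FPKM with a pseudocount of 1 and 0.1. Of 709 log2 fold changes of 42 genes under single alternatives, 556 kept their direction and side of the threshold, 117 in 15 genes no longer passed, 9 in 5 genes newly passed, and 27 in 8 genes turned sign; causes other than the shift given below were not tested.

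All 8 were genes that had not passed. The median of all genes itself moved from 0.01 to -0.15 on library totals and to -0.11 and -0.13 on FPKM, more than the estimates of Mbl2, Cfi, Cd59a and Cr1l, so their turns there follow a shift of all genes. On library totals Mbl2 was -0.026, Cfi -0.10, Cd59a -0.11 and Cr1l -0.13; on log2(FPKM + 1) they were -0.019, -0.10, -0.12 and -0.13, and with 0.1 they were -0.019, -0.10, -0.12 and -0.13. Cd59a was -0.021 in voom. Without WT 164 and 165, Mbl2 was -0.10, C7 0.051, Cfi -0.022 and Cr1l -0.012. Over the fits without 1 mouse, C3 ranged from -0.16 to 0.037, C7 from -0.45 to 0.0034, C4bp from -0.091 to 0.013, Cfi from -0.0062 to 0.11, Cd59a from -0.090 to 0.12, Cr1l from -0.0095 to 0.043 and C5ar2 from -0.13 to 0.0024.

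With 4 livers a group, 11 of the 16 calls were lost under at least 1 alternative. C7 had the lowest mean level (0.758 to 2.25 CPM), and the lowest single value was Cfd in WT 164 (0.636 CPM), against a detection floor of 0.0929 to 0.126 CPM.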

Other observations

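The acute phase genes, which hepatocytes make in inflammation beside C3 and Cfb, had estimates in both directions. Of 13 tested, 5 fell and 0 rose, while 6.48% of all genes tested fell and 4.36% rose. The median log2 fold change of the 13 was -0.25, with 8 estimates below 0 and 5 above. Lcn2, an iron-chelating lipocalin, fell by 1.69 on the log2 scale, from 190 ± 59.5 to 58.9 ± 13.3 CPM (edgeR adjusted p = 0.00440). The orosomucoid gene Orm2 fell by 0.95 (adjusted p = 0.00537), and the serum amyloid genes Saa1 and Saa2 by 0.62 (adjusted p = 0.00536) and 0.72 (adjusted p = 0.00832). Apcs, serum amyloid P, a pentraxin that binds C1q, fell by 0.72 (adjusted p = 0.0156). The fibrinogen chain genes Fga, Fgb and Fgg had estimates of 0.41, 0.35 and 0.40 and did not pass (adjusted p 0.148 to 0.176). Haptoglobin (Hp) was at -0.29 (adjusted p = 0.0831) and Crp at 0.18 (adjusted p = 0.330).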
